A study of Mus musculus with 30 samples.

Results

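The genes described here are 36 listed members of 2 overlapping sets, the genes that build ribosomes in the nucleolus and the genes whose transcription is driven by MYC. They were chosen by name, with earlier results of these data known. The shares of all genes set beside their counts are therefore no independent test. Of the 36, 35 had a probe on the array, all but Fbl (fibrillarin, the box C/D methyltransferase), against 19057 genes with a probe in all. Each gene was read from its probe of highest mean over the 30 arrays. In all, 30 members were tested, among 13201 genes tested. The other 5 members with a probe (Nop16, Dkc1, Wdr12, Rrs1 and Utp20) were above the dim level, the top of the background signal at 7.18 on the log2 scale, in 0 of 30 arrays, and nothing can be said of their levels.

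Ribosomes are assembled in the nucleolus, where RNA polymerase I transcribes the long ribosomal RNA precursor, small nucleolar ribonucleoproteins (snoRNPs) modify and fold it, and separate sets of factors cut and package it into the small and the large subunit. MYC, a transcription factor that pairs with MAX on the E-box sequence, raises the transcription of many of these factors and of enzymes that supply polyamines and nucleotides to growing cells. In the lining of the small intestine both programmes are highest in the dividing cells of the crypts and fall as the cells move up the villus.

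Expression was measured on Illumina mouse whole-genome beadchips in mucosal scrapings of the jejunum, the middle part of the small intestine, of C57BL/6 male mice aged 11 to 12 weeks. Each mouse received 1 intraperitoneal injection of exendin-4 (Ex-4, a peptide agonist of the GLP-1 receptor, at 10 nmol/kg), of human recombinant KGF/Fgf7 (an epithelial growth factor, at 1 mg/kg) or of the vehicle PBS. Tissue was taken after 1 h (n = 3 in each group), 5 h (n = 4) or 20 h (n = 3), which gave 9 groups. The labels name no genetic change in any group, and a scraping holds whatever cells come away with the mucosa.

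All values are deposited log2 signals, and a difference is a difference of log2 group means from limma's linear model of all 30 arrays, given with its SE. A gene is said to have passed, or to have risen or fallen, where its Benjamini-Hochberg adjusted p over the 13201 genes was under 0.05. The labels do not say more of the replicates than that they are separate samples, so the p-values speak only of how much these samples vary. Array medians were 7.14 throughout, as the deposited arrays share 1 distribution. Arrays of a group correlated across genes (which are not independent) at r = 0.988 to 0.996. The median r was 0.993 within groups and 0.991 between groups. Villus enterocyte markers were present, 12 of 14 above the dim level in all 30 arrays, with Fabp2 above it in none. In 4 arrays the mean centred signal of 12 smooth muscle markers (each gene's log2 value minus its mean over the 30 arrays) was far above the rest, at 2.21 in PBS replicate 3 at 1 h, 2.21 in PBS replicate 3 at 5 h, 1.00 in Ex-4 replicate 1 at 5 h and 1.32 in Fgf7 replicate 2 at 5 h. The other arrays lay between -0.55 and 0.22, and the members' counts and medians at 5 h are given with and without these arrays.

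At 5 h after Fgf7, 5 of the 30 members had risen and 0 had fallen. They were Srm (spermidine synthase, the enzyme that makes spermidine), Ncl (nucleolin, an abundant RNA-binding protein of the nucleolus), Trmt61a (the catalytic subunit of a tRNA adenosine methyltransferase), Rrp1b (a nucleolar factor of large subunit maturation) and Cad (the enzyme of the first steps of pyrimidine synthesis). Among all genes 28 of 13201 passed in this comparison, 0.212%, of which 25 were higher, 0.189%, and 3 lower, 0.0227%. The median difference of the 30 members was 0.25, with 28 above 0, beside a median of 0.00 over all genes with 50.9% above 0. More cells of a type and more RNA per cell cannot be told apart in scrapings.

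Ncl had signals of 8.82, 8.63, 8.86 and 8.68 in PBS replicates 1 to 4 at 5 h, and of 9.24, 9.38, 9.41 and 9.33 after Fgf7. All 4 Fgf7 arrays were above every PBS array, by at least the width of the PBS range. The difference was 0.59 ± 0.10, or 1.51-fold (limma, adjusted p = 0.00389). A second Ncl probe gave 0.48.

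Srm had signals of 8.05, 7.92, 8.01 and 7.56 in the PBS arrays and 8.79, 8.89, 8.88 and 8.26 in the Fgf7 arrays. The groups did not overlap, although PBS replicate 4 was low in its group and so was Fgf7 replicate 4. The difference of 0.82 ± 0.15, or 1.77-fold (limma, adjusted p = 0.0174), was the widest among the 30 members. The other 2 Srm probes, both above the dim level in 30 of 30 arrays, gave 0.38 and 0.35.

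Trmt61a had signals of 8.59, 8.74, 8.86 and 8.60 after PBS and 9.15, 9.37, 9.41 and 9.12 after Fgf7, again with no overlap. Its difference was 0.57 ± 0.11, or 1.48-fold (limma, adjusted p = 0.0174). Rrp1b had signals of 8.14, 8.14, 8.45 and 8.20 after PBS and 8.53, 9.03, 8.85 and 8.73 after Fgf7. Here the highest PBS array, replicate 3, was close to the lowest Fgf7 array, replicate 1, and the groups did not overlap. The difference was 0.55 ± 0.10, or 1.47-fold (limma, adjusted p = 0.0174). A second probe of Rrp1b gave 0.50 and another, above the dim level in 24 of 30 arrays, 0.11.

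Cad, the dimmest of these 5, had signals of 7.45, 7.50, 7.50 and 7.20 after PBS and 7.84, 7.97, 7.89 and 7.72 after Fgf7. Every Fgf7 array was above every PBS array, and PBS replicate 4 was close to the dim level. The difference was 0.44 ± 0.10, or 1.36-fold (limma, adjusted p = 0.0463). When the mode of the deposited signal, 7.02 on the log2 scale, was taken off as background, Cad differed by 1.41 on the log2 scale, with an adjusted p of 0.0711.

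**Figure D1:**
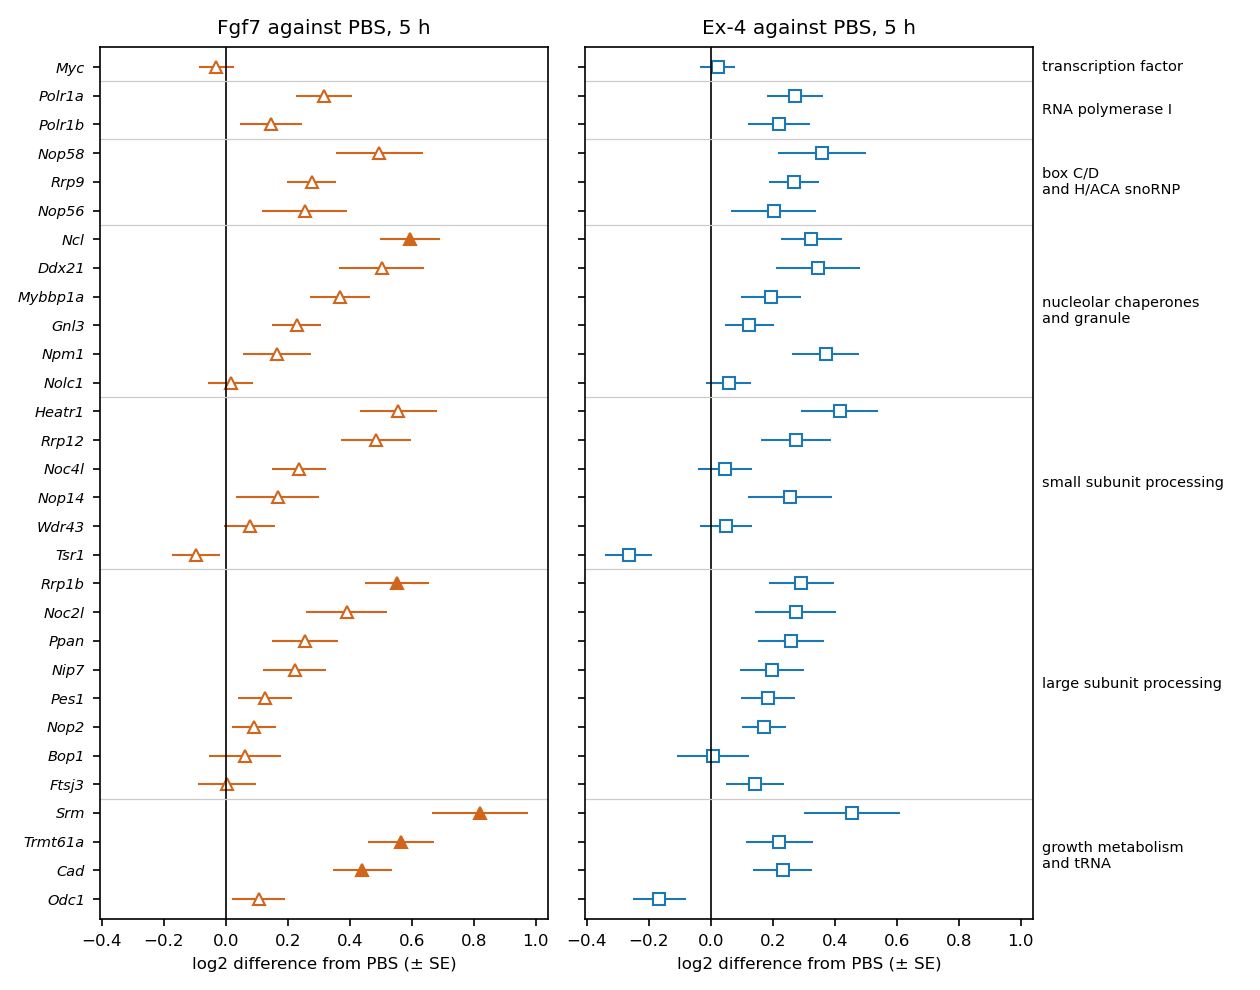
Log2 difference from time-matched PBS at 5 h for the 30 members tested, after Fgf7 (left, triangles) and after Ex-4 (right, squares), grouped by role; points are limma estimates, bars are SE and filled points passed. After Fgf7 5 members are filled, with Srm farthest right at 0.82; after Ex-4 28 of 30 points are right of 0.

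How many of these calls stood depended on the model and on the arrays that entered the fit. With the replicate number as a block the count of 5 became 8. When only the 8 arrays of the 2 groups were fitted, in place of all 30, the count of 5 became 1, Ncl. Ncl passed in 8 of 8 fits that left out 1 of the 5 h PBS or Fgf7 arrays, with adjusted p between 0.0047 and 0.0274. The count of members that passed fell to 1 without Fgf7 replicate 2, Fgf7 replicate 3 or PBS replicate 4, to 2 without PBS replicate 1 and to 3 without PBS replicate 2. Without the 4 arrays rich in smooth muscle, which leaves 3 arrays in each 5 h group, 0 members passed, Ncl having an adjusted p of 0.0506. The differences themselves were then 0.62 for Ncl, 0.80 for Srm, 0.58 for Trmt61a, 0.54 for Rrp1b and 0.43 for Cad, while the median over the 30 members was 0.18 with 27 above 0.

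The promoters of 4 members are shown because they bear on the named regulators: Trmt61a, a risen member with an E-box, Mybbp1a with an E-box, Heatr1 with a site of the ETS kind, and Ncl, which passed in each of the 8 fits that left out 1 array. The sequences are from RefSeq, build GRCm38.p6, each from 250 bases before to 50 after the start, 5′ to 3′ on the gene's strand. They lie at chr12:111677855-111678154 (plus strand), chr11:72441077-72441376 (plus strand), chr13:12395125-12395424 (plus strand) and chr1:86359406-86359705 (minus strand). Capitals mark the E-box CACGTG, the letters CCGGAAGT bound by ETS factors and the letters TGACGTCA of the cyclic AMP response element, searched on both strands.
Trmt61a: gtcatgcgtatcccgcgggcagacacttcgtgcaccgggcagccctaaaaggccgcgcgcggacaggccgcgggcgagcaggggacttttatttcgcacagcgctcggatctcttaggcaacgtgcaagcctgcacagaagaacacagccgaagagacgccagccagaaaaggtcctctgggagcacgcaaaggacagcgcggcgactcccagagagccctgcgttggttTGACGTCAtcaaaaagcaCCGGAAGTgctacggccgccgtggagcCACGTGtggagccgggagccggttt
Mybbp1a: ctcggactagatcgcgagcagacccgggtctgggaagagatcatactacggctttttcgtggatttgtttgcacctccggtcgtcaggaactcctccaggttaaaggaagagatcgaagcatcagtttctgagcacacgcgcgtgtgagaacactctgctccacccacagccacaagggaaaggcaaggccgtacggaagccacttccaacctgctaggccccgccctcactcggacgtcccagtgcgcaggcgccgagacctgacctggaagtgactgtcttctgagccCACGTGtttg
Heatr1: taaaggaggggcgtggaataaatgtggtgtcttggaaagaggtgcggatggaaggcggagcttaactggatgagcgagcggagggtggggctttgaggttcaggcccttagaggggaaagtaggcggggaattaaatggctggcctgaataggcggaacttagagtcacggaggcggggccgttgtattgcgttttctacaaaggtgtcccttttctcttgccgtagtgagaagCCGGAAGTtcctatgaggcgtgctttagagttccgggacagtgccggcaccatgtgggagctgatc
Ncl: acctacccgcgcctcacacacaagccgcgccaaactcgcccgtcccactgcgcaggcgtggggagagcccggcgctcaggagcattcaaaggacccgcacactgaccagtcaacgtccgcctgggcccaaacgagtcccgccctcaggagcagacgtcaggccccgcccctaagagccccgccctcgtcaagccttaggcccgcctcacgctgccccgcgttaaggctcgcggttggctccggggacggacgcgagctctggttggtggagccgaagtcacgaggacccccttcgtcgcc

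In Trmt61a the cyclic AMP element began at -20, the ETS letters at -2 and the E-box at +26 from the start. In Mybbp1a the E-box began at +41, and in Heatr1 the ETS letters at -16. Of the 36 members, 29 had an entry in the table and were searched; Myc, Npm1, Fbl, Bop1, Rrs1, Rrp12 and Srm had none. Among the 29, 7 held an E-box (Nop2, Utp20, Pes1, Mybbp1a, Tsr1, Trmt61a and Wdr43), beside 8.09% of all 27025 genes. The ETS letters stood in 6 of the 29 (Noc2l, Nip7, Ppan, Tsr1, Trmt61a and Heatr1), beside 4.31% of all genes, and the cyclic AMP element in 3 (Noc4l, Ppan and Trmt61a), beside 2.03%. None of these 3 motifs overlaps another in the sequences printed. The ETS and cyclic AMP searches, and the printing of Mybbp1a, Heatr1 and Ncl, were chosen after the expression values had been seen. Of the members with an E-box only Trmt61a had risen after Fgf7. Nop2, Pes1, Mybbp1a, Tsr1 and Wdr43 did not pass there, and Utp20 was not tested. The risen members Ncl, Rrp1b and Cad held no E-box in this window, and Srm was not searched. A link between motif and response was not tested. A match is a string of letters and not evidence of binding, and the absence of one in Ncl says only that these letters are not in this window.

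Myc itself was barely measured. Its brighter probe had a mean of 7.17 and was above the dim level in 11 of 30 arrays. At 5 h its signals were 7.14, 7.22, 7.10 and 7.18 after PBS, 7.23, 7.23, 7.17 and 7.09 after Ex-4 and 7.16, 7.14, 7.15 and 7.06 after Fgf7. The 3 groups overlapped and 0 of 4 Fgf7 arrays were above the dim level. Its difference was -0.03 ± 0.06 after Fgf7 and 0.02 ± 0.06 after Ex-4 (limma, adjusted p = 0.985 and 0.941), at a signal where a change of Myc could not be seen. Of its relatives and partner, Mycn was above the dim level in 0 of 30 arrays, while Mycl and Max were above it in 30 of 30. Max differed from PBS at 5 h by -0.22 ± 0.11 after Fgf7 and -0.26 ± 0.11 after Ex-4 (limma, adjusted p = 0.773 and 0.399), and by -0.45 ± 0.13 at 20 h after Ex-4 (adjusted p = 0.0732). Mycl differed at 5 h by -0.19 ± 0.10 after Fgf7 and by 0.11 ± 0.10 after Ex-4 (limma, adjusted p = 0.776 and 0.745). None of these passed.

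Among the RNA polymerase I subunits, 2 were tested and 0 passed after Fgf7 at 5 h. Polr1a, the largest subunit, differed by 0.32 ± 0.09 with no overlap between its Fgf7 and PBS arrays, and Polr1b, the next largest, by 0.15 ± 0.10. Of the snoRNP proteins, Nop58 (a core box C/D protein) differed by 0.50 ± 0.14, Rrp9 (a protein of the U3 particle) by 0.28 ± 0.08 and Nop56 (the partner of Nop58) by 0.26 ± 0.14. Their adjusted p values were 0.222 or more in limma.

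The nucleolar chaperones and granule proteins had 1 of 6 that passed, Ncl, and a median difference of 0.30. Ddx21, an RNA helicase of rRNA transcription and processing, had signals of 9.04, 8.92, 9.15 and 9.36 after PBS and 9.45, 9.72, 9.72 and 9.58 after Fgf7. The 2 groups did not overlap, and its difference of 0.50 ± 0.14 had an adjusted p of 0.184 in limma. Mybbp1a, a nucleolar MYB-binding protein, had signals of 9.04, 8.90, 8.87 and 9.16 after PBS and 9.41, 9.22, 9.43 and 9.37 after Fgf7. These did not overlap either, and the difference was 0.37 ± 0.10 (limma, adjusted p = 0.167). Gnl3 (nucleostemin, a GTPase) differed by 0.23 ± 0.08, Npm1 (nucleophosmin, a granule chaperone) by 0.17 ± 0.11 and Nolc1 (a snoRNP chaperone) by 0.02 ± 0.07.

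Of 6 small subunit factors 0 passed after Fgf7 at 5 h, and their median was 0.20. Heatr1, the counterpart of yeast Utp10, had signals of 9.27, 9.10, 9.11 and 9.19 after PBS and 9.56, 9.79, 9.95 and 9.60 after Fgf7. It came closest to the threshold of the members that did not pass, with no overlap and a difference of 0.56 ± 0.12 (limma, adjusted p = 0.0555). Rrp12, known from yeast in the export of subunits, had signals of 8.67, 8.76, 8.91 and 8.91 after PBS and 9.08, 9.38, 9.50 and 9.24 after Fgf7. It did not overlap, and its difference was 0.49 ± 0.11 (limma, adjusted p = 0.0737). Tsr1, a factor of late small subunit maturation, was the one member below 0 beside Myc, at -0.10 ± 0.08.

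Of 8 large subunit factors only Rrp1b passed, and their median was 0.17. Noc2l, known from yeast in the transport of large subunit precursors, differed by 0.39 ± 0.13, and Ppan and Nip7, both factors of large subunit maturation, by 0.26 ± 0.11 and 0.22 ± 0.10. Pes1 and Bop1, partners in one complex with the unmeasured Wdr12, differed by 0.13 ± 0.09 and 0.06 ± 0.12. Nop2 and Ftsj3, which methylate ribosomal RNA, differed by 0.09 ± 0.07 and 0.01 ± 0.09. The 8 differences therefore ran from 0.01 to 0.55.

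The 4 members of growth metabolism and tRNA modification had a median of 0.50, and 3 passed. The remaining one, Odc1 (ornithine decarboxylase, which supplies the polyamine pathway upstream of Srm), had signals of 12.53, 12.22, 12.23 and 12.12 after PBS and 12.30, 12.29, 12.51 and 12.43 after Fgf7. Its groups overlapped, with a difference of 0.11 ± 0.09 (limma, adjusted p = 0.94).

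Over all roles, 17 of 30 members had an unadjusted p under 0.05 after Fgf7 at 5 h, each of them higher, against 4.68% of all genes that were higher at that level. In 12 members every Fgf7 array was above every PBS array, against 2.01% of all genes. These were Ncl, Nop58, Rrp9, Rrp12, Rrp1b, Mybbp1a, Ddx21, Heatr1, Polr1a, Srm, Cad and Trmt61a. Each was read from its brightest probe. The other probes of Heatr1 (4 in all), Mybbp1a and Polr1a (5 in each), and Nop58 and Ddx21 (2 in each) are not given here. Nor is 1 of the 4 probes of Rrp1b. The members share arrays and vary together, so these counts are not of independent genes. The list was also chosen with earlier results of these data known.

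**Figure D2:**
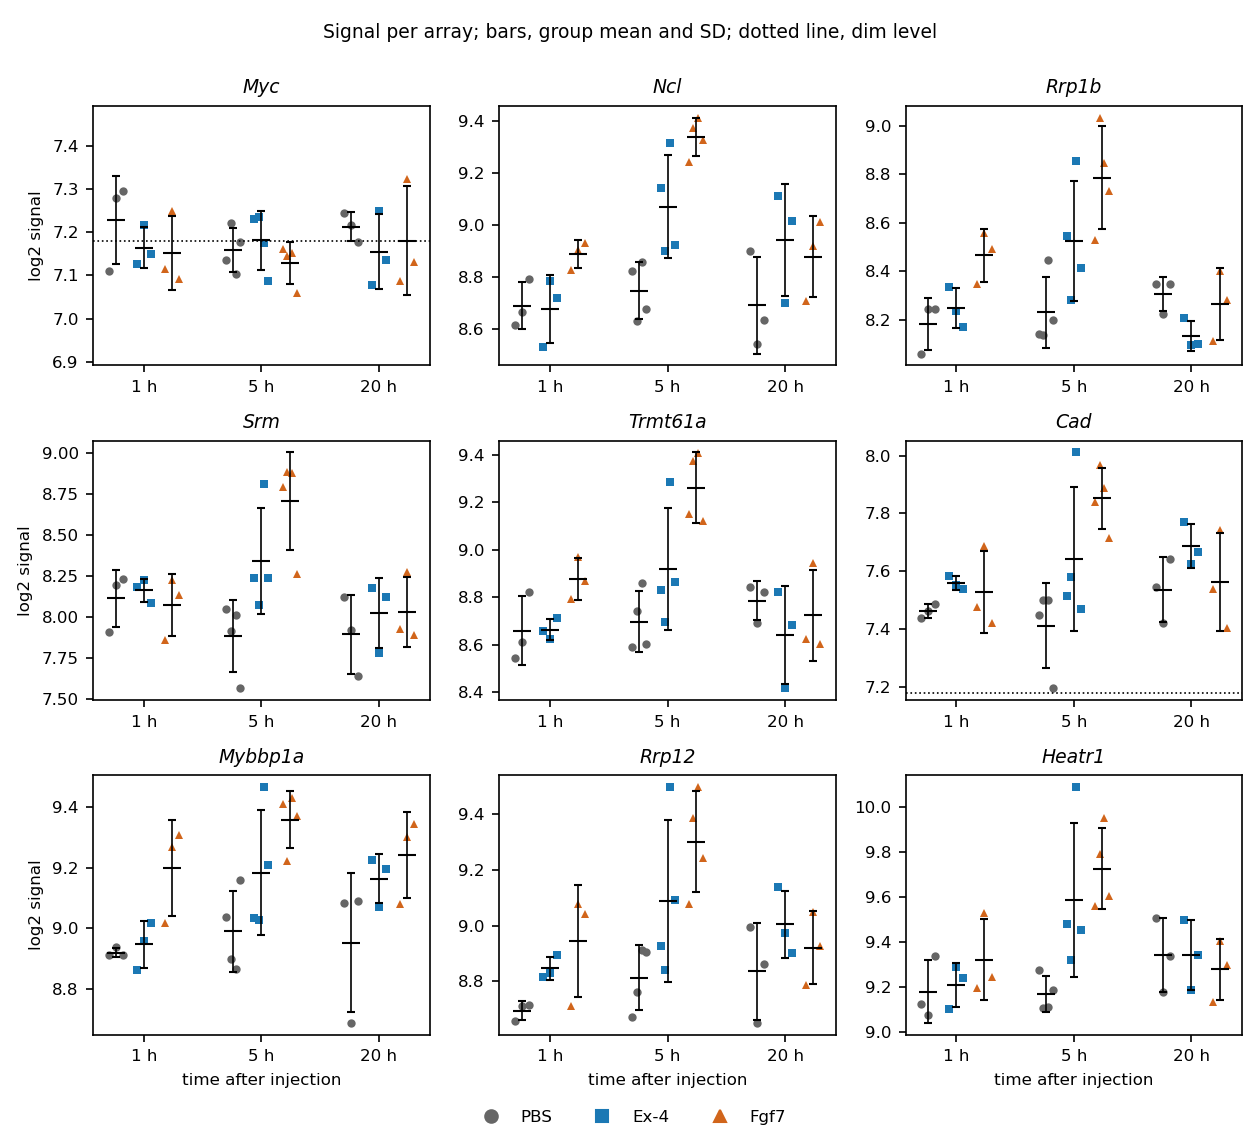
Log2 signal of 9 members in each of the 30 arrays, by time after injection (1, 5 or 20 h) and agent; points are arrays, black bars are the group mean and SD, and the dotted line is the dim level of 7.18. At 5 h the 4 Fgf7 arrays lie above the 4 PBS arrays in each panel but Myc, and 1 Ex-4 array, replicate 3, lies above the other Ex-4 arrays in those same 8 panels.

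At 5 h after Ex-4, 0 of 30 members passed, in a comparison where 119 genes, 0.901%, did. The members nevertheless lay above 0 in 28 of 30 cases with a median of 0.22, beside a median of 0.00 over all genes with 50.8% above 0. An unadjusted p under 0.05 was reached by 17 members, against 11.2% of all genes, of which 16 were higher, against 5.48%. In 6 members (Ncl, Npm1, Rrp9, Heatr1, Polr1a and Srm) the Ex-4 arrays did not overlap the PBS arrays and were higher, against 2.74% of all genes.

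Ncl had signals of 9.14, 8.90, 9.32 and 8.92 in Ex-4 replicates 1 to 4, all above the PBS arrays and all but 1 below the Fgf7 arrays. Its difference from PBS was 0.32 ± 0.10 (limma, adjusted p = 0.128). Srm had signals of 8.24, 8.08, 8.81 and 8.24, of which replicate 3 alone reached the level of the upper 3 Fgf7 arrays, and differed by 0.46 ± 0.15 (limma, adjusted p = 0.195). Npm1 had signals of 12.91, 12.96, 13.02 and 12.89 after Ex-4 and of 12.70, 12.59, 12.60 and 12.41 after PBS, with a difference of 0.37 ± 0.11 (limma, adjusted p = 0.121). After Fgf7 Npm1 spread from 12.41 to 12.99 and overlapped PBS.

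Tsr1 went the other way after Ex-4, with signals of 8.20, 8.24, 7.93 and 8.15 against 8.36, 8.37, 8.32 and 8.53 after PBS. All 4 Ex-4 arrays were below all PBS arrays, as in 3.14% of all genes, and the difference was -0.26 ± 0.08 (limma, adjusted p = 0.110, the smallest of the 30 members). With the replicate number as a block Tsr1 passed. Odc1 also lay below 0, at -0.17 ± 0.09 (limma, adjusted p = 0.491).

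One Ex-4 array, replicate 3, stood above the other 3 in many members. In Ex-4 replicate 3 Heatr1 reached 10.09, Rrp12 9.50, Mybbp1a 9.47, Trmt61a 9.29, Rrp1b 8.85 and Cad 8.01, while the other 3 Ex-4 arrays lay between 9.32 and 9.48 for Heatr1, 8.84 and 9.09 for Rrp12, 9.03 and 9.21 for Mybbp1a, 8.69 and 8.86 for Trmt61a, 8.28 and 8.55 for Rrp1b, and 7.47 and 7.58 for Cad. The mean centred signal of the 30 members was 0.33 in that array and 0.06, -0.03 and 0.06 in Ex-4 replicates 1, 2 and 4. In PBS replicates 1 to 4 it was -0.05, -0.09, -0.06 and -0.16, and in Fgf7 replicates 1 to 4 it was 0.14, 0.29, 0.27 and 0.06. Without Ex-4 replicate 3 the members' median difference from PBS was 0.13 in place of 0.22, with Ncl at 0.24, Srm at 0.30 and Heatr1 at 0.25. Without the 4 arrays rich in smooth muscle it was 0.26, with 27 of 30 members above 0 and 0 that passed.

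The 2 agents were compared directly by the difference of their means, with the PBS arrays entering only the estimate of the spread. At 5 h 0 of 30 members passed between Ex-4 and Fgf7, where 72 genes, 0.545%, did. The members were lower after Ex-4 in 21 of 30 cases, with a median of -0.08, while 48.4% of all genes were above 0. In all, 8 had an unadjusted p under 0.05, each lower after Ex-4, against 5.61% of all genes, namely Ncl, Rrp1b, Tsr1, Noc4l, Srm, Odc1, Cad and Trmt61a. Without the 4 arrays rich in smooth muscle 15 of 30 members were lower after Ex-4, the median was 0.00 and 0 passed.

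The 95% interval of the difference, Ex-4 minus Fgf7, was -0.57 to -0.12 for Trmt61a, -0.45 to -0.09 for Odc1, -0.47 to -0.07 for Ncl, -0.68 to -0.05 for Srm, -0.47 to -0.05 for Rrp1b and -0.41 to -0.01 for Cad. None of these is adjusted for the number of genes, and the smallest adjusted p was 0.188, for Trmt61a (limma). Without Ex-4 replicate 3, Trmt61a passed with a difference of -0.47 (limma, adjusted p = 0.0383). That array held the highest Ex-4 signal of Trmt61a and is named because of such values. Leaving it out must widen this difference, so the pass is no separate support. For Heatr1 and Rrp12 the intervals ran from -0.39 to 0.11 and from -0.44 to 0.02, so these arrays do not settle whether the 2 agents differ there.

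At 1 h no member passed after either agent. PBS replicate 3 at 1 h was rich in smooth muscle, and the 1 h values are given only with it. After Ex-4 0 of 30 passed, as did 0 of all genes, 0%, with 19 members above 0 and a median of 0.03. After Fgf7 0 of 30 passed, against 1 gene, 0.00758%, with 20 members above 0 and a median of 0.07. Of all genes 50.7% were above 0 after Ex-4 and 50.4% after Fgf7. At an unadjusted p under 0.05 there was 1 member after Ex-4 and 4 after Fgf7, against 2.95% and 7.58% of all genes. The 4 after Fgf7 were Rrp1b at 0.28 ± 0.12 and Mybbp1a at 0.28 ± 0.11, both higher, and Nop56 at -0.34 ± 0.16 and Pes1 at -0.26 ± 0.10, both lower (limma, adjusted p = 0.635 or more). Between Ex-4 and Fgf7 0 of 30 passed, against 0.00758% of all genes, and the median was -0.04.

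At 20 h, too, 0 of 30 members passed after either agent. After Ex-4, where 302 genes, 2.29%, passed, 17 members were above 0, beside 53.8% of all genes, with a median of 0.05. An unadjusted p under 0.05 was reached by 1 member, against 12.2% of all genes. That was Ncl at 0.25 ± 0.11 (limma, adjusted p = 0.346), with signals of 9.11, 8.70 and 9.02 against 8.90, 8.54 and 8.63 after PBS. After Fgf7, where 6 genes, 0.0455%, passed, 16 members were above 0, beside 54.2% of all genes, with a median of 0.01. With the replicate number as a block 10 genes passed in this comparison, and still 0 members. Mybbp1a alone had an unadjusted p under 0.05, as had 4.01% of all genes, at 0.29 ± 0.11 (limma, adjusted p = 0.999). Between the agents 0 of 30 passed, against 1.75% of all genes.

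**Figure D3:**
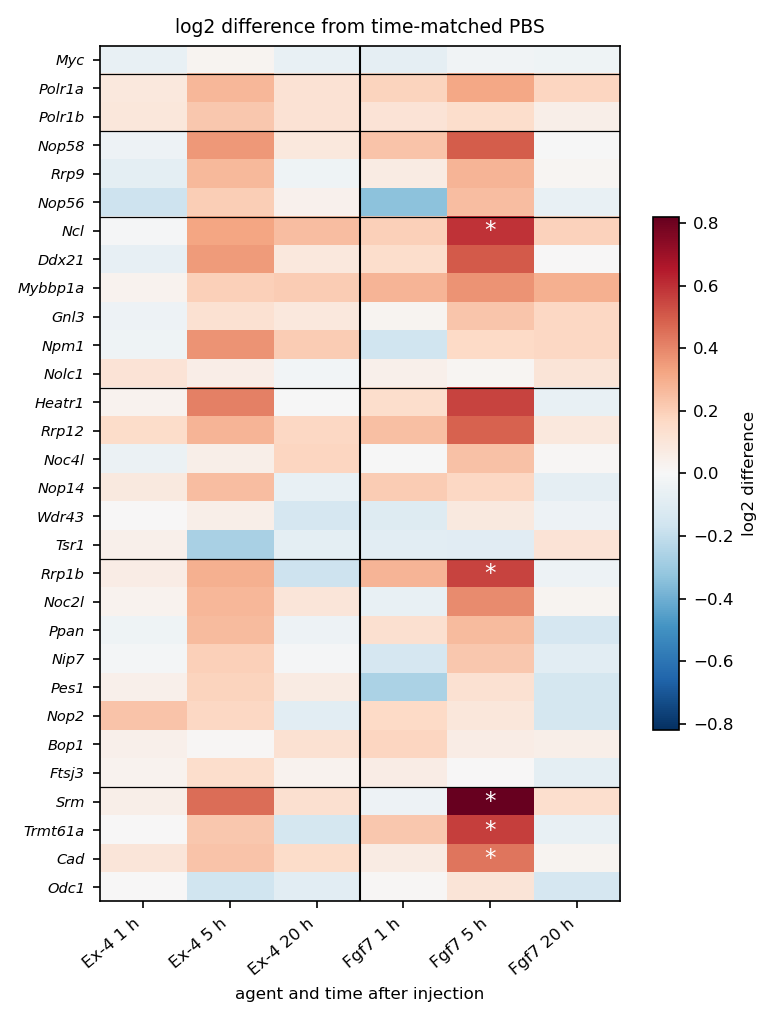
Colour map of the log2 difference from time-matched PBS for the 30 members (rows, grouped by role in the same order as in the plot of 5 h differences) in the 6 contrasts (columns); red is higher and blue lower than PBS, and asterisks mark members that passed. Asterisks stand in 5 rows of the Fgf7 5 h column only, and the 2 columns at 5 h are above 0 in 28 of 30 rows each.

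Whether the difference from PBS itself changed with time was tested directly. For Fgf7, 20 h against 5 h, 0 of 30 members passed, as did 0 of all genes, 0%. The difference was smaller at 20 h in 27 of 30 members, by a median of -0.26, while the change was above 0 in 52.1% of all genes. In 12 members the unadjusted p was under 0.05, each lower at 20 h, against 1.95% of all genes. For the 5 members that had risen at 5 h the change was -0.68 ± 0.24 for Srm, -0.63 ± 0.16 for Trmt61a, -0.59 ± 0.16 for Rrp1b, -0.42 ± 0.15 for Cad and -0.41 ± 0.15 for Ncl. For Fgf7, 5 h against 1 h, 0 of 30 passed, again with 0% of all genes. The change was above 0 in 24 members, beside 51.3% of all genes, with a median of 0.22. In 9 members the unadjusted p was under 0.05, each higher at 5 h, against 4.37% of all genes. Srm had the widest change, 0.86 ± 0.24 (limma, adjusted p = 0.611). These tests share the 5 h arrays with the comparison that showed the rise. Without the 4 arrays rich in smooth muscle the median change was -0.24 from 5 h to 20 h and 0.12 from 1 h to 5 h, and 0 members passed in either.

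For Ex-4 the change from 1 h to 5 h had 0 of 30 members that passed, against 0.129% of all genes, a median of 0.17 and 25 members above 0. From 5 h to 20 h it had 0 of 30, against 0.947%, a median of -0.16 and 5 members above 0. Of all genes 51% were above 0 in the first of these changes and 52.2% in the second. Without the same 4 arrays these medians were 0.20 and -0.17, and 0 members passed. Over all 6 contrasts against PBS together, an F-test in limma called 3 of 30 members, Ncl, Rrp1b and Trmt61a (adjusted p = 0.00876, 0.0280 and 0.0453), against 255 genes, 1.93%. The count of 3 was 8 without Ex-4 replicate 3 at 5 h, and 1 without Fgf7 replicate 2 at 1 h, Fgf7 replicate 2 or 3 at 5 h, PBS replicate 1, 2 or 4 at 5 h, or the 4 arrays rich in smooth muscle. Both agents are set against the same PBS arrays, so their medians at 5 h, and the medians of their changes with time, are not independent of each other.

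No member passed between the times after PBS. Replicate 3, rich in smooth muscle at 1 h and at 5 h, is included here. Between 1 h and 5 h, 5 h and 20 h, and 1 h and 20 h, 0 of 30 members and 0 of all genes, 0%, passed in limma, nor in the F-test over the 3 times, and 0, 0 and 1 members had an unadjusted p under 0.05, against 5.48%, 4.35% and 4.27% of all genes. From 1 h to 5 h the smallest p values were those of Pes1 at -0.18 ± 0.09, Odc1 at 0.15 ± 0.09, Nop2 at 0.12 ± 0.08 and Srm at -0.23 ± 0.17. From 5 h to 20 h they were those of Pes1 at 0.17 ± 0.09, Nop14 at 0.19 ± 0.15, Heatr1 at 0.17 ± 0.13 and Cad at 0.12 ± 0.10. From 1 h to 20 h they were those of Nop2 at 0.18 ± 0.08, the 1 member under 0.05, Polr1a at 0.15 ± 0.10, Srm at -0.22 ± 0.18 and Heatr1 at 0.16 ± 0.14.

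Markers of dividing crypt cells and of other cell types were set beside the members. All 9 dividing crypt markers tested (Bub1 was above the dim level in no array) lay above 0 at 5 h after both agents, with a median of 0.25 after Fgf7 and 0.26 after Ex-4, and 0 passed after either. Their mean centred signal was 0.00, -0.06, -0.21 and -0.26 in PBS replicates 1 to 4 at 5 h, 0.12, 0.01, 0.21 and 0.17 after Ex-4 and 0.19, 0.37, 0.19 and -0.23 after Fgf7. The Fgf7 arrays overlapped the PBS arrays here through replicate 4, and the Ex-4 arrays were all above them. Without the 4 arrays rich in smooth muscle 7 of the 9 were above 0 after Fgf7, with a median of 0.09, and 9 after Ex-4, with a median of 0.23. Villus enterocyte markers had 2 of 12 above 0 after Fgf7, with a median of -0.06, and 3 of 12 after Ex-4, with a median of -0.18. Paneth cell markers had 5 of 5 above 0 after Ex-4, with a median of 0.43, and 4 of 5 after Fgf7, with a median of 0.03. Macrophage and dendritic cell markers had 6 of 6 above 0 after both, with medians of 0.18 after Ex-4 and 0.05 after Fgf7. Without the 4 arrays rich in smooth muscle 1 of 6 was above 0 after Fgf7 (median -0.10), and 5 after Ex-4 (median 0.10). Villus enterocyte markers then had 5 of 12 above 0 after Fgf7 (median -0.01) and 3 of 12 after Ex-4 (median -0.14). Paneth cell markers then had 3 of 5 after Fgf7 (median 0.004) and 5 of 5 after Ex-4 (median 0.43). Smooth muscle markers had 0 of 12 above 0 after Ex-4, with a median of -0.27, and 1 of 12 after Fgf7, with a median of -0.18, and without the 4 arrays rich in them 10 of 12 after each, with medians of 0.04 and 0.10. The other 6 cell type lists had medians from -0.22 to 0.18, and no marker of any of the 11 lists passed at 5 h after either agent. Without the 4 arrays B cell and plasma cell markers had 1 of 5 above 0 after Fgf7, in place of 4. T cell markers had 4 of 5, in place of 2. At 20 h the dividing crypt means spread from -0.16 to 0.34 after Ex-4 and from -0.10 to 0.33 after Fgf7. After PBS they ran from -0.18 to 0.03. Of the 9 markers 8 were above 0 after each agent, with medians of 0.18 after Ex-4 and 0.25 after Fgf7, and 0 passed. The members' means ran from -0.11 to 0.05 after Ex-4, from -0.10 to 0.07 after Fgf7 and from -0.10 to 0.01 after PBS. Their median differences were 0.05 and 0.01. The part of these cells in the members' signal was not tested.

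**Figure D4:**
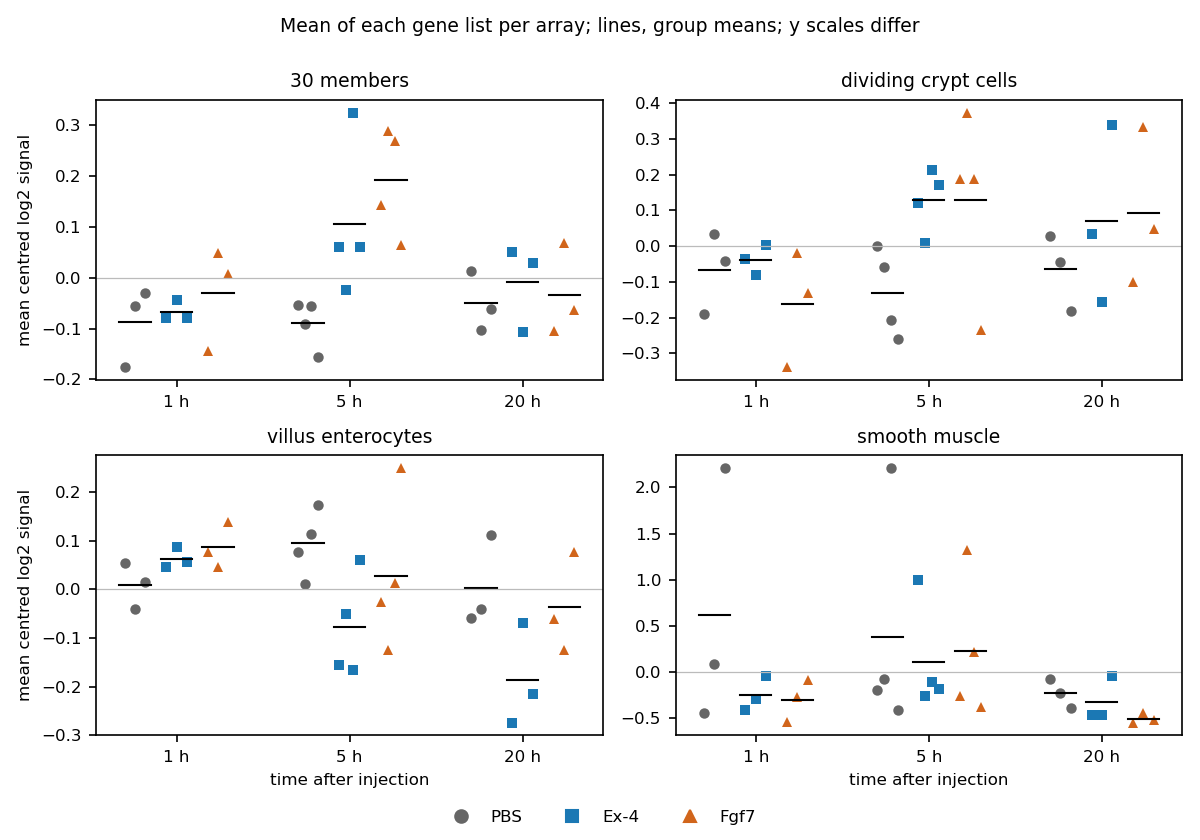
Mean centred log2 signal of the 30 members, of dividing crypt cell markers, of villus enterocyte markers and of smooth muscle markers in each array, by time and agent; points are arrays, lines are group means and the vertical scales differ. At 5 h the members' means are 0.06 to 0.29 after Fgf7 and -0.16 to -0.05 after PBS, and smooth muscle stands at 2.21 in 1 PBS array at 1 h and 1 at 5 h.

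Other genes of the same pathway, from lists that hold none of the members, had smaller median differences at 5 h after Fgf7. Of 38 further small subunit factors 0 passed, 29 were above 0 and the median was 0.08. Of 44 further large subunit factors 0 passed, 38 were above 0 and the median was 0.09. The 9 further snoRNP genes were all above 0 with a median of 0.12, and 0 passed. The other RNA polymerase I genes (9 of 12 above 0, median 0.08) and the nuclear exosome (10 of 11, median 0.11) also had 0 that passed. A list of polyamine and nucleotide genes, not all of them synthesis enzymes, had 0 that passed too (18 of 20 above 0, median 0.12). These medians lie below the 0.25 of the members, who were chosen with earlier results of these data known, so the gap is no test of either list.

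Among 30 further MYC targets 1 rose 5 h after Fgf7, Ccnd2 (cyclin D2, which drives cells out of G1), by 0.53 ± 0.11 or 1.45-fold (limma, adjusted p = 0.0346), and the list's median was 0.18 with 27 above 0. Without the 4 arrays rich in smooth muscle 0 of these 30 passed, and the median was 0.11 with 25 above 0. The list mixes genes that MYC raises with genes that it represses, Ndrg1 and Gadd45a among them. Its medians and counts are therefore not those of raised targets alone. The 17 genes of the MYC network (partners and antagonists) had 0 that passed, 4 above 0 and a median of -0.08. Of 53 cytosolic ribosomal protein genes 0 passed after Fgf7, with 33 above 0 and a median of 0.02, and 0 passed after Ex-4, with 50 above 0 and a median of 0.15. After Ex-4 the other lists also had 0 that passed at 5 h, with medians of 0.08 for small subunit factors, 0.06 for large subunit factors, 0.18 for snoRNP genes, 0.20 for further MYC targets and -0.06 for the MYC network.

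These 9 lists hold 234 tested genes, of which 4 passed 20 h after Ex-4, or 1.71%, below the 2.29% of all genes that passed there. Ndrg1, a gene repressed by MYC, fell by 0.70 on the log2 scale and Gadd45a, a growth arrest gene also repressed by MYC, fell by 0.36 (limma, adjusted p = 0.0261 and 0.0321). At 5 h Ndrg1 had differed from PBS in the other direction, by 0.40 ± 0.15 (limma, adjusted p = 0.259), and its Ex-4 difference changed by -1.11 ± 0.23 from 5 h to 20 h (limma, adjusted p = 0.0150). Ldha (lactate dehydrogenase A) rose by 0.30 ± 0.08 and Nme1 (a nucleoside diphosphate kinase) by 0.45 ± 0.12 (limma, adjusted p = 0.0407 and 0.0368). Both are targets that MYC is known to raise. The list of further MYC targets had 22 of 30 above 0 in this comparison, with a median of 0.13. The 30 members had 0 that passed in the same arrays. A part of MYC in these changes was not tested. Of the cell type markers, Lct (lactase, of villus enterocytes) fell by 0.63 in this comparison and Clca1 (of goblet cells) rose by 0.61 ± 0.15 (limma, adjusted p = 0.00410 and 0.0299).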

How the data were processed

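Total RNA from 30 scrapings was measured on 30 arrays. Per the labels' protocols it was extracted with Trizol and amplified and labelled with biotin in an Illumina TotalPrep-96 kit. The authors deposited log2 signals per probe; the sources used here do not name their normalization, and the largest SD over arrays of the values at 1 rank was 0.00218, so the arrays share 1 distribution. A table of non-normalized signals and detection p-values was not used here, because its 60 columns match no sample label. The members and lists were chosen with earlier results of these data known.

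Of 45281 probes, 34885 had 1 gene symbol, 18 several and 10378 none, and 34807 matched RefSeq genes (GRCm38.p6) by gene ID. The dim level of 7.18 was the mode of the signal plus the normal quantile for an upper share of 0.01, with the SD below the mode (0.0710). The filter kept 26637 probes that exceeded it in 3 arrays or more, and the brightest stood for its gene. The low-signal filter did not select on 1 group: 28 of the tested members were above the dim level in 30 of 30 arrays, Nolc1 in 28 and Myc in 11. limma fitted a mean for each of 9 groups to all arrays (degrees of freedom: 21 residual, 4.60 prior; median SD of the residuals 0.107), with Benjamini-Hochberg adjustment over 13201 genes and a threshold of 0.05; it was tested on simulated data.

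Per-array values are given for Myc, the members that passed in any comparison between 2 agents (PBS included) and, to a total of 8 beside Myc, those of smallest p in the F-test over 6 contrasts against PBS. The values of Ddx21, Npm1, Tsr1 and Odc1 were added after they had been seen. Between PBS times up to 4 members of smallest p are named, and of each other list up to 4 genes that passed. Alternatives were 1 array left out in turn, only the groups compared, a replicate block, other filters and probes, array weights, another variance model, background subtraction, centred arrays, and a smooth muscle covariate or the removal of 4 arrays. Versions were R 4.3.3, limma 3.58.1, Python 3.11.15 and matplotlib 3.10.9. The precision is limited by the 3 or 4 arrays in a group.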

Additional observations from a re-analysis of the deposited data

Results flagged for a closer look

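In the 3 groups of 4 arrays, 27 sets of values (9 members in 3 groups) were examined for 1 array far from the other 3, and 3 were found; chance finds about 1 in 20. Srm was 8.26 in Fgf7 replicate 4 at 5 h, where the nearest of the other 3 arrays was 8.79. Cad was 7.20 in PBS replicate 4 at 5 h, where the nearest was 7.45. Myc was 7.06 in Fgf7 replicate 4 at 5 h, where the nearest was 7.14, all below the dim level.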

How the results depend on the processing

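Of the comparisons of how many members passed, 354 results under an alternative stayed within 1.5 times the reported count and 19 did not. At 5 h after Fgf7 the count of 5 became 1 when only the groups compared were fitted, 8 with a replicate block and 0 without the 4 arrays rich in smooth muscle, and ran from 1 to 7 with 1 array left out. The other settings gave 4 to 6. At 5 h after Ex-4 the count of 0 became 1 (Tsr1) with a replicate block. Between Ex-4 and Fgf7 at 5 h it ran from 0 to 1 with 1 array left out. In the F-test over the contrasts against PBS the count of 3 became 5 with a replicate block and 1 without the 4 arrays rich in smooth muscle, and ran from 1 to 8 with 1 array left out. The cause was not tested, beyond the smaller number of arrays in the fits that leave arrays out. Deviations of same-numbered arrays of 2 groups at 1 time correlated at -0.18 to 0.65, over 0.1 in 22 of 30 pairs of arrays. At 5 h each comparison had a pair or more under 0.1, for PBS and Fgf7 replicate 3 alone, at 0.085. The numbers were therefore not taken to pair those samples, which does not show that they were unpaired. Replicate 4 correlated there at 0.650 between PBS and Ex-4 and at 0.443 between PBS and Fgf7. Between Ex-4 and Fgf7 it correlated at 0.338. The labels do not say whether same-numbered arrays were handled together. For PBS and Fgf7 every pair was over 0.1 at 1 h and at 20 h, where the block left 0 members that passed. The difference of Myc after Ex-4 at 5 h turned to -0.0124 without those 4 arrays. Background subtraction raised the median difference of the members at 5 h to 0.46 after Fgf7 and 0.37 after Ex-4. The count of all genes that passed at 5 h after Fgf7, 28, ran from 8 to 79 with 1 array left out and from 3 to 47 under the other settings. For Ex-4 at 5 h, 119 ran from 37 to 134 and from 13 to 164, and at 20 h 302 ran from 134 to 316 and from 71 to 411. Cad was below the stricter filter and had no value there, and fitting only the groups compared was not run for the F-test, which uses all groups. Dim signals limit what can be seen of Myc, Nolc1 and the 5 members that were not tested.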
